A study of Mus musculus with 12 samples.

Results

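The annulus fibrosus is the lamellar collagen ring of the intervertebral disc, and its cells descend from the sclerotome, the ventral part of the somite that also forms the vertebrae. The nucleus pulposus, the gel-like core, descends instead from the notochord. Described here are 8 genes that build or mark the sclerotome and its tendon-forming derivatives, measured in both compartments of the mouse disc. They were chosen by name from the genes on the array, among 19505 genes with a symbol, and all 8 were found, each with 1 probe set (a transcript cluster, the unit in which the array reports a gene). Pax1 and Pax9 are paired-box factors of the ventral sclerotome, induced there by Sonic hedgehog and needed together for vertebral bodies and discs to form. Nkx3-2 (Bapx1) is a homeobox repressor that acts below both and promotes cartilage formation. Foxf1 and Foxc2 are forkhead factors of hedgehog-responsive and paraxial mesoderm. Scx (scleraxis) is a helix-loop-helix activator that defines tendon and ligament progenitors, Mkx (Mohawk) is an Iroquois-like homeobox factor that maintains tendon and outer annulus collagen fibres, and Tnmd (tenomodulin) is a membrane glycoprotein of mature tendon cells that Scx induces.

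The tissue came from lumbar discs, L1 to S1, of 12-month-old C57BL/6 mice without treatment. There were 4 groups of 3 arrays each: annulus fibrosus (AF) of TonEBP +/- mice, AF of wild-type (WT) mice, nucleus pulposus (NP) of TonEBP +/- mice and NP of WT mice. TonEBP +/- mice are haploinsufficient for Nfat5, the gene of the transcription factor TonEBP that adapts cells to high osmolarity. The labels name no tissue-specific driver, no deleted part of the gene and no sex, each sample held the discs of 1 animal, and the labels do not say whether an AF and an NP sample came from the same mouse.

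The values are log2 signals as the authors deposited them, and 3 arrays per group limit the precision. Each array carries 23 background probe sets, and a gene counted as clearly above background if its signal passed their 95th percentile. This strict level lay between 7.73 and 7.98 on AF arrays and between 7.11 and 7.33 on NP arrays. Array medians also differed between tissues, with AF between 7.43 and 7.64 and NP between 6.82 and 6.87, so differences between tissues are given after subtracting each array's median. Nfat5 itself had 8.91, 8.94 and 8.74 in AF of TonEBP +/- mice, against 7.70, 8.69 and 9.93 in AF of WT mice. In NP it had 9.06, 9.62 and 9.09 in TonEBP +/- mice and 9.12, 8.80 and 8.34 in WT mice. Nfat5 did not pass limma's test in either tissue (log2 difference 0.09 in AF, adjusted p = 0.923; 0.50 in NP, adjusted p = 1), and whether its probes lie in the deleted part is not known here. The NP arrays carried their defining keratins (Krt19 between 17.2 and 17.7 on all 6 arrays). AF arrays carried Comp, an annulus and tendon matrix protein, at 15.28, 14.64 and 13.85 in TonEBP +/- mice and 14.07, 16.96 and 16.88 in WT mice. AF array 1 of WT mice had Krt19 at 11.37, against 6.25 to 8.27 on the other AF arrays.

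The regulators gave weak signals throughout, as the plot of every array shows. Pax1 was clearly above background on 3 of 12 arrays, all of them AF, and the other 7 genes were so on 0 of 12. Averaged over all arrays, the 8 genes stood between the 3.19 percentile (Foxc2) and the 33.8 percentile (Pax9) of the 22206 clusters. Of all clusters, 37.5% were likewise above background on no array. With the median of the background probe sets as the level instead, 5 of the 8 genes exceeded it on at least 1 array. A signal below the strict level may still hold RNA, so differences are given in log2 signal with their test, and no fold change is given between groups that both lie below it. In whole tissue, fewer cells of a type and less RNA per cell cannot be told apart.

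**Figure D1:**
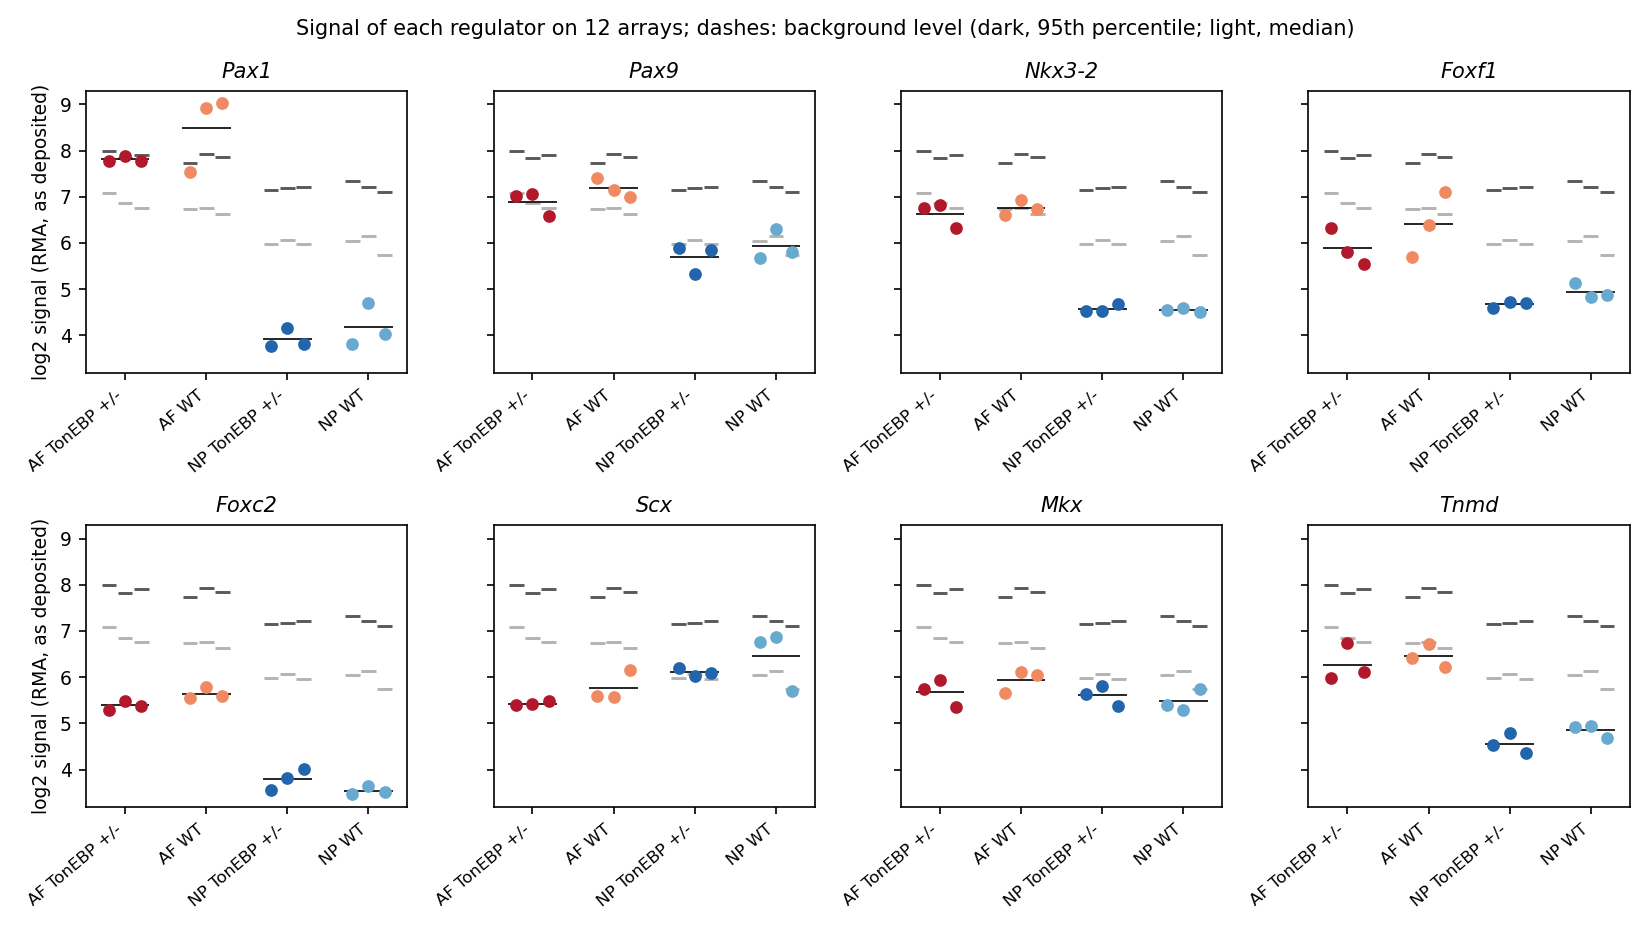
Log2 signal of each gene on every array (vertical axis) in 4 groups of 3 arrays (horizontal axis). Points are arrays, black lines are group means, and dark and light dashes are each array's background level as the 95th percentile and the median of its 23 background probe sets. Pax1 points reach or pass the dark dashes in AF only, and every NP point of the 8 genes lies below its dark dash.

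Pax1 separated the tissues most widely. Its log2 signal was 7.78, 7.88 and 7.77 in AF of TonEBP +/- mice (1 of 3 arrays above background) and 7.54, 8.92 and 9.02 in AF of WT mice (2 of 3). In NP it was 3.78, 4.16 and 3.81 in TonEBP +/- mice and 3.81, 4.70 and 4.03 in WT mice, with 0 of 6 arrays above background. No AF array overlapped an NP array. Relative to array medians, Pax1 was higher in AF than in NP by 3.20 log2 in TonEBP +/- mice (95% confidence interval 2.49 to 3.92, limma adjusted p = 7.36e-07). In WT mice the difference was 3.57 (adjusted p = 2.65e-07). The NP values have only a bound, and set against the NP background level the size depends on the scale. As deposited, Pax1 was at least 2.42-fold higher in AF in WT mice. In TonEBP +/- mice the AF mean of 7.81 lay below the background level of each AF array (7.98, 7.83 and 7.91), so no fold is given. After subtracting array medians Pax1 was at least 1.45-fold higher in WT mice. In TonEBP +/- mice the AF mean then lay below the NP background level as well.

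Pax9, the paralog of Pax1, showed a smaller separation. It had 7.02, 7.06 and 6.58 in AF of TonEBP +/- mice and 7.41, 7.14 and 6.99 in AF of WT mice. In NP the values were 5.90, 5.33 and 5.85 in TonEBP +/- mice and 5.68, 6.29 and 5.80 in WT mice. All AF values lay above all NP values as deposited, but after subtracting array medians they overlapped. The difference relative to medians was 0.50 in TonEBP +/- mice (interval -0.01 to 1.02, limma adjusted p = 0.0893) and 0.52 in WT mice (adjusted p = 0.0732), so Pax9 passed the test in neither. Without NP array 2 of WT mice the WT difference was 0.70 and passed (limma adjusted p = 0.0328). With values as deposited, where background probe sets also stood higher in AF, it was 1.19 in TonEBP +/- mice (limma adjusted p = 0.000549) and 1.26 in WT mice (adjusted p = 0.000295), both past the threshold.

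Nkx3-2, which acts downstream of both Pax factors, passed in both genotypes. AF arrays read 6.76, 6.82 and 6.32 in TonEBP +/- mice and 6.61, 6.94 and 6.74 in WT mice. NP arrays read 4.52, 4.52 and 4.68 in TonEBP +/- mice and 4.56, 4.60 and 4.51 in WT mice. The groups were tight (SD between 0.05 and 0.27, n = 3 each) and the tissues did not overlap. Nkx3-2 was higher in AF by 1.37 relative to medians in TonEBP +/- mice (limma adjusted p = 2.96e-05) and by 1.47 in WT mice (adjusted p = 1.51e-05).

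Foxc2, the dimmest of the 8, followed the same order, while Foxf1 was variable in AF. Foxc2 had 5.30, 5.48 and 5.38 in AF of TonEBP +/- mice and 5.55, 5.79 and 5.60 in AF of WT mice. In NP it had 3.56, 3.83 and 4.01 in TonEBP +/- mice and 3.47, 3.65 and 3.52 in WT mice. The tissues did not overlap, and Foxc2 was higher in AF by 0.90 relative to medians in TonEBP +/- mice (limma adjusted p = 0.00148) and by 1.36 in WT mice (adjusted p = 3.52e-05). Foxf1 had 6.32, 5.81 and 5.55 in AF of TonEBP +/- mice and 5.70, 6.39 and 7.11 in AF of WT mice. Its NP values were 4.59, 4.73 and 4.71 in TonEBP +/- mice and 5.12, 4.83 and 4.87 in WT mice. The AF values of WT mice spread over more than 1 log2 unit (SD 0.70, n = 3). Relative to medians Foxf1 differed by 0.53 in TonEBP +/- mice, which did not pass (limma adjusted p = 0.149), and by 0.72 in WT mice, which passed narrowly (adjusted p = 0.0488). Without AF array 3 of WT mice the WT difference was 0.35 (adjusted p = 0.286), and it also missed the threshold without 7 other single arrays. As deposited, the difference in TonEBP +/- mice was 1.22 and passed (limma adjusted p = 0.00205).

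The tendon genes divided. Tnmd was on the annulus side, with 5.97, 6.74 and 6.10 in AF of TonEBP +/- mice and 6.41, 6.71 and 6.22 in AF of WT mice. Its NP values were 4.54, 4.79 and 4.36 in TonEBP +/- mice and 4.92, 4.95 and 4.68 in WT mice. The tissues did not overlap, and Tnmd was higher in AF by 1.02 relative to medians in TonEBP +/- mice (limma adjusted p = 0.00172) and by 0.86 in WT mice (adjusted p = 0.00479). After quantile normalization of the 12 arrays the WT difference was 0.43 and no longer passed (adjusted p = 0.116).

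Scx, the factor that induces Tnmd, ran the other way. Its AF values were 5.39, 5.41 and 5.49 in TonEBP +/- mice and 5.60, 5.56 and 6.17 in WT mice. Its NP values were 6.19, 6.03 and 6.09 in TonEBP +/- mice and 6.76, 6.88 and 5.71 in WT mice. In TonEBP +/- mice every AF array lay below every NP array, while in WT mice NP array 3 fell within the AF range as deposited. Relative to medians Scx was lower in AF by a log2 difference of -1.36 in TonEBP +/- mice (interval -1.98 to -0.75, limma adjusted p = 0.000884) and of -1.41 in WT mice (adjusted p = 0.000571). With values as deposited it was still lower in AF, by -0.67 in both genotypes. Scx thus went against the label of an annulus regulator on these arrays, with all 12 values below the strict background level.

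Mkx did not separate the tissues in a way that held across scalings. It had 5.75, 5.94 and 5.35 in AF of TonEBP +/- mice and 5.65, 6.12 and 6.05 in AF of WT mice. In NP it had 5.64, 5.81 and 5.37 in TonEBP +/- mice and 5.40, 5.29 and 5.74 in WT mice. As deposited these ranges overlap, with AF minus NP differences of 0.07 in TonEBP +/- mice and 0.46 in WT mice. Relative to medians the differences were -0.62 in TonEBP +/- mice, which passed (limma adjusted p = 0.0317), and -0.28 in WT mice, which did not (adjusted p = 0.298). The call in TonEBP +/- mice was lost without AF array 1 or 3 or without NP array 1 or 2 of that genotype (adjusted p up to 0.114), and the sign of the Mkx difference depends on the scaling. After quantile normalization Mkx was lower in AF in WT mice too, with a difference of -0.69 (limma adjusted p = 0.0137).

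Of the 8 genes, 4 were called higher and 2 lower in AF in TonEBP +/- mice, where 56.2% of all clusters were called (25.3% higher and 30.9% lower). In WT mice 5 were called higher and 1 lower, against 65.0% of all clusters called (31.3% higher and 33.7% lower). With so many clusters called, the number of calls alone says little about these genes. The median difference of the 8 genes relative to array medians was 0.72 in TonEBP +/- mice and 0.79 in WT mice, beside 0.06 and 0.10 over all clusters and 0.34 and 0.45 over the 8332 clusters above background on no array. Among those dim clusters, 96.2% had a difference below that of Nkx3-2 in TonEBP +/- mice and 97.2% in WT mice. For Scx the share of dim clusters below it was 1.72% in TonEBP +/- mice and 1.31% in WT mice. For Tnmd it was 88.7% and 77.0%, well inside the spread of the dim clusters. For Foxc2 it was 84.3% in TonEBP +/- mice, also inside that spread, and 95.5% in WT mice. Pax9 (61.8% and 54.6%), Foxf1 (63.3% and 68.6%) and Mkx (7.96% and 13.6%) lay inside it in both genotypes. All 6 AF arrays lay above all 6 NP arrays as deposited for 6 of the 8 genes, where 45.3% of all clusters did so. After subtracting medians they did so for 4 genes (Pax1, Nkx3-2, Foxc2 and Tnmd) against 19.4% of clusters, and lay below for Scx alone, against 26.5%.

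**Figure D2:**
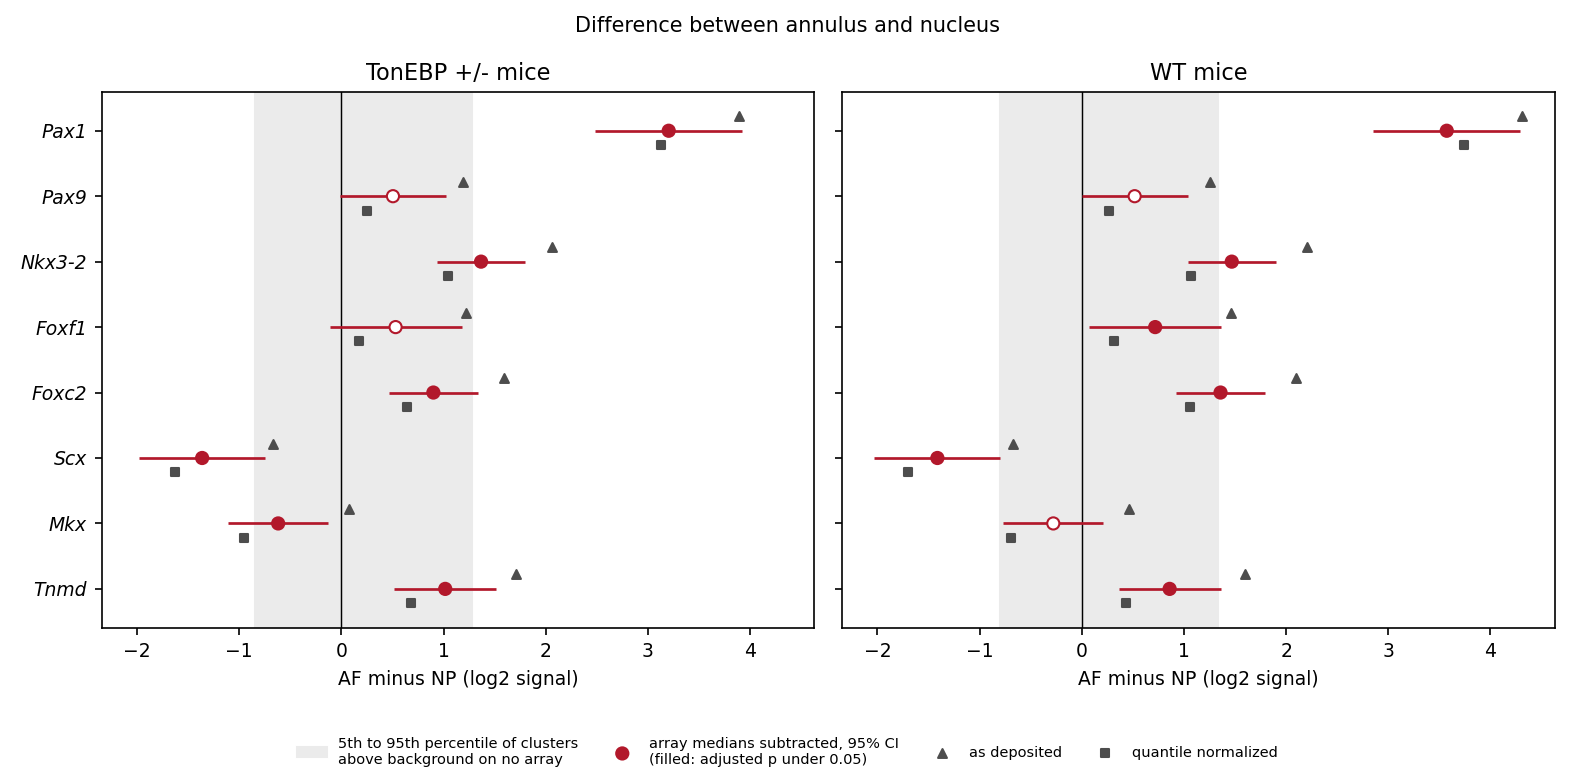
AF minus NP difference in log2 signal (horizontal axis) for each gene in TonEBP +/- mice (left) and WT mice (right). Circles with lines are limma estimates with 95% confidence intervals after subtracting array medians, filled where the adjusted p is under 0.05. Triangles are values as deposited, squares are values after quantile normalization, and the grey band spans the 5th to 95th percentile of the 8332 clusters above background on no array. Pax1 (3.20 and 3.57) stands far beyond the band, Nkx3-2 (1.37 and 1.47) just past its upper edge and Scx (-1.36 and -1.41) past its lower edge, while Mkx changes side with the scaling. Foxc2 also lies just past the upper edge in WT mice (1.36).

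The signal of background probe sets moved with this comparison too. The 23 background probe sets were higher in AF than in NP by a mean of 0.73 log2 in TonEBP +/- mice (0.45 to 1.15) and 0.65 in WT mice (0.11 to 1.14), close to the difference in array medians of 0.69 and 0.74. As deposited, the differences of Pax1 (3.89 and 4.31), Nkx3-2 (2.06 and 2.21), Foxc2 (1.59 and 2.10) and Tnmd (1.71 and 1.60) exceeded the range of the background probe sets in both genotypes. Those of Pax9 (1.19 and 1.26) and Foxf1 (1.22 and 1.46) lay just above its upper end. The dim clusters spread more widely than the background probe sets. Relative to array medians, Tnmd, Pax9 and Foxf1 in both genotypes and Foxc2 in TonEBP +/- mice lay inside the spread of the dim clusters.

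Sequence upstream of the start was on hand for 4 of the 8 genes, from the RefSeq annotation of GRCm38.p6, and is shown because 3 of them (Pax1, Nkx3-2 and Tnmd) stood higher in AF together while Pax9, the paralog of Pax1, did not pass. Each stretch is the 250 bases before the annotated start, 5′ to 3′ on the gene's strand. It lies at chr2:147364744-147364993 on the plus strand for Pax1, chr5:41764221-41764470 on the minus strand for Nkx3-2, chr12:56695221-56695470 on the plus strand for Pax9 and chrX:133850758-133851007 on the plus strand for Tnmd. For Pax1 and Pax9 this start lies inside the full annotated span of the gene, so other starts exist. Capitals mark letters found on either strand: the E-box CANNTG that helix-loop-helix factors such as Scx bind, the NFAT core GGAAA, the GLI core CCACCCA of hedgehog effectors and the forkhead core TAAACA.
Pax1: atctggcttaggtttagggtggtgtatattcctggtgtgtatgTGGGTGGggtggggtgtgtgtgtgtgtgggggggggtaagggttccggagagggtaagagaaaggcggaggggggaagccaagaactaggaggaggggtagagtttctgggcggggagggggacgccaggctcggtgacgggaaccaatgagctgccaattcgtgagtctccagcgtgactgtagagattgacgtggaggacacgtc
Nkx3-2: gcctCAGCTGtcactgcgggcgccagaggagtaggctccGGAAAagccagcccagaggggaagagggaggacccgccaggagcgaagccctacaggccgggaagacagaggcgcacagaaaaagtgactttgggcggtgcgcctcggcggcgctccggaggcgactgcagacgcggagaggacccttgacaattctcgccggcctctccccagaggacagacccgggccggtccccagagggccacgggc
Pax9: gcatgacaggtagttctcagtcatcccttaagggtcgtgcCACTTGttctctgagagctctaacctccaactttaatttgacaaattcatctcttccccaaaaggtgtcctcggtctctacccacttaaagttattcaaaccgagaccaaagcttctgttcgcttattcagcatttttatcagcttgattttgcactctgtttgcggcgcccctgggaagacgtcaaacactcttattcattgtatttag
Tnmd: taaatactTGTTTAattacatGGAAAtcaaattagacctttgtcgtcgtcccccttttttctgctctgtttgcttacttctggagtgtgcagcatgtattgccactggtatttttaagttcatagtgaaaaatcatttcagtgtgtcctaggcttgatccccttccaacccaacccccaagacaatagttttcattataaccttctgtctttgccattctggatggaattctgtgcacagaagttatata
The Pax1 stretch holds the GLI core on its reverse strand, at positions -207 to -201 from the start. On either strand, 8.11% of the 32851 mouse promoters of the same length hold it. The longer GLI form GACCACCCA, present in 0.225% of promoters, was in 0 of the 4. An E-box stood in Nkx3-2 and Pax9, beside 66.2% of all promoters, and a GGAAA core in Nkx3-2 and Tnmd, beside 55.6%. Tnmd also held the forkhead core on its reverse strand, and 12.0% of promoters hold it on either strand. The full tonicity-responsive element, the motif that TonEBP binds, was in 0 of the 4 stretches and in 4.31% of all promoters. Their GC content was 58.8% for Pax1, 68.8% for Nkx3-2, 43.6% for Pax9 and 38.4% for Tnmd, around a median of 52.4%.

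Between genotypes, none of the 8 genes passed the test in AF. The differences of TonEBP +/- minus WT were -0.68 for Pax1 (interval -1.40 to 0.04, limma adjusted p = 0.239), -0.51 for Foxf1 (interval -1.15 to 0.14, adjusted p = 0.341) and between -0.35 and -0.13 for the other 6. Thus 0 of 8 were called, where 6.07% of all clusters were, and 0 of 8 had an unadjusted p under 0.05, where 23.2% did. All 8 differences were below 0, as were 53.6% of all clusters and 69.7% of dim clusters, and their median was -0.28 beside -0.04 over all clusters and -0.16 over dim ones. Every TonEBP +/- array lay below every WT array for Foxc2 and Scx, as for 12.3% of clusters. The intervals do not exclude falls of more than 1 log2 unit for Pax1 and Foxf1.

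The Pax1 comparison rested on 1 array. AF array 1 of WT mice read 7.54, below the TonEBP +/- values, while the other WT arrays read 8.92 and 9.02. Without that array the difference was -1.16 and passed (limma adjusted p = 0.0443), whereas without WT array 2 or 3 it was -0.47 (adjusted p = 0.554) or -0.42 (adjusted p = 0.538). With limma's array weights, whose fit did not fully converge, it was -0.81 (adjusted p = 0.0181). The same array was also low in cartilage genes that WT arrays 2 and 3 carried at high levels: Cnmd (chondromodulin, the closest relative of Tnmd) had 11.57 there, against 15.55 and 16.62, and Comp had 14.07, against 16.96 and 16.88. Hhip, a hedgehog target, had 9.33, against 10.71 and 12.19. Of other hedgehog pathway genes, Ptch1 had 8.23 there, against 10.36 and 11.85. Gli1 was not low there, with 8.52 against 8.72 and 8.29. On that WT array NP and notochord genes had a summed log2 signal of 18.5, against 15.6 to 16.3 on other AF arrays. In AF of TonEBP +/- mice Cnmd had 14.84, 12.56 and 12.90, Comp 15.28, 14.64 and 13.85 and Hhip 10.73, 9.64 and 9.28. In the same group Ptch1 had 10.17, 9.33 and 9.98, and Gli1 8.06, 8.23 and 7.90. The part of any of these in the Pax1 difference was not tested.

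In NP none of the 8 genes passed either, and all adjusted p-values of limma were 1. Differences of TonEBP +/- minus WT ran between -0.35 (Scx) and 0.25 (Foxc2), with 5 of 8 below 0, as were 49.0% of all clusters, and a median of -0.25 beside 0.01 over all clusters. Only 0.113% of clusters were called in NP, and 3.72% had an unadjusted p under 0.05, which 0 of the 8 genes reached. Foxf1 alone had every TonEBP +/- array below every WT array, as 5.93% of clusters did. The difference between the genotype effects in AF and NP was called for 0 of 8 genes, against 0.887% of clusters, and 0 of 8 had an unadjusted p under 0.05, against 14.0%. It ran between -0.51 for Foxc2 (adjusted p = 0.471) and 0.11 for Tnmd.

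**Figure D3:**
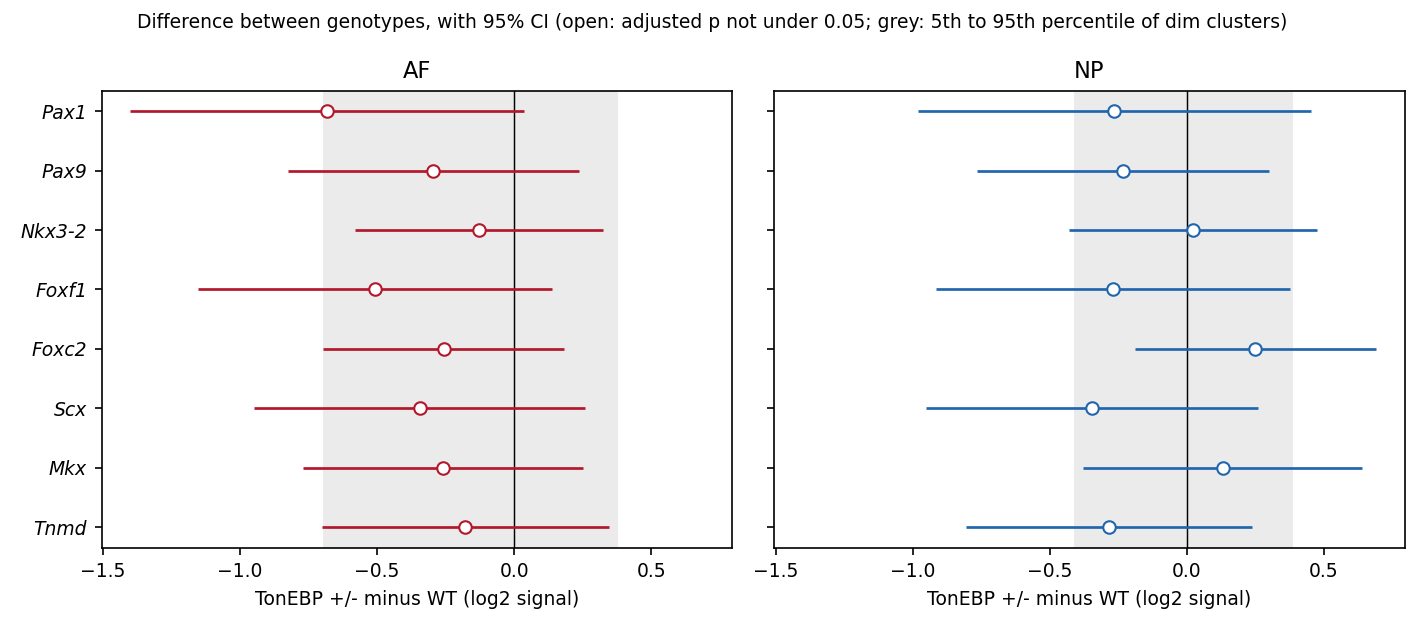
TonEBP +/- minus WT difference in log2 signal (horizontal axis) for each gene in AF (left) and NP (right), with 95% confidence intervals from limma. Open circles mark adjusted p-values not under 0.05, and the grey band spans the 5th to 95th percentile of the 8332 clusters above background on no array. All 8 AF estimates lie between -0.68 and -0.13, and all intervals include 0 in both tissues.

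Across the 4 groups, the order of mean signal as deposited was AF of WT, AF of TonEBP +/-, NP of WT and NP of TonEBP +/- mice for Pax1, Pax9, Foxf1 and Tnmd. For Nkx3-2, Foxc2 and Mkx the NP groups changed places, and for Scx both NP groups stood above both AF groups. Genotypes within a tissue, always neighbours in these orders, did not pass the tests above. The genes whose profile over the 12 arrays was most like that of Pax1, by the root mean square difference after subtracting each gene's mean, were Bcat1 (0.329 log2), Ptgis (0.428) and Ebf1 (0.429), out of 10653 genes compared. Bcat1 encodes a branched-chain aminotransferase, Ptgis prostacyclin synthase and Ebf1 a transcription factor. The likeness rests in part on the 9 arrays where Pax1 was not above background. The other 7 genes were too dim for such a comparison.

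The counts for related lists below stand against the shares over all clusters, 25.3% higher and 30.9% lower in AF in TonEBP +/- mice and 31.3% higher and 33.7% lower in WT mice. Of 10 other somite and sclerotome regulators measured, 6 were higher and 1 lower in AF in TonEBP +/- mice, and 7 higher and 1 lower in WT mice. Only 3 of the 10 were above background on any array, and clusters above background on no array themselves had medians of 0.34 in TonEBP +/- mice and 0.45 in WT mice. Tbx18, which keeps the front and back of each somite apart, differed by 1.55 in TonEBP +/- mice and 1.25 in WT mice. Foxf2, the paralog of Foxf1, differed by 1.28 in TonEBP +/- mice and 1.22 in WT mice, and the mesoderm homeobox gene Meox2 by 1.45 and 1.60. Tbx18, Foxf2 and Meox2 were each above background on no array. The forkhead gene Foxc1, above background on 10 of 12 arrays, was higher in AF by 1.03 in TonEBP +/- mice (limma adjusted p = 0.00933). Zic1, a zinc-finger factor of the dorsal somite, was lower in AF relative to medians, by -0.67 in TonEBP +/- mice and -1.24 in WT mice. It was above background on no AF array. As deposited, its means were 7.27 in AF and 7.25 in NP in TonEBP +/- mice, so the sign turned there. In WT mice they were 7.18 and 7.68. The list's median was 0.70 in TonEBP +/- mice and 0.82 in WT mice, near that of the 8 genes, and none of its members passed between genotypes in AF or NP.

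Of 16 signals and factors of the tendon program measured, 1 was higher and 7 lower in AF in TonEBP +/- mice, and 5 higher and 6 lower in WT mice. Tgfb2, a ligand that induces Scx in embryonic tendon, differed by -3.95 in TonEBP +/- mice (limma adjusted p = 7.97e-09) and -3.12 in WT mice. Its receptor gene Tgfbr2 differed by -3.67 and -3.28, and the fibroblast growth factor target Etv5 by -2.99 and -2.69. The receptor gene Fgfr1, above background on no AF array, differed by -1.45 and -1.97. The members with the largest differences on the other side were called in WT mice: Egr1, a growth response factor of tendon cells (2.38 in WT mice, 0.39 and not passing in TonEBP +/- mice), and the homeobox gene Six2 (1.35 in WT mice, -0.02 and not passing in TonEBP +/- mice). Six2 was above background on only 1 of 12 arrays, in AF of WT mice. Relative to medians, its AF mean in WT mice lay below the NP background level. Eya2, a transcriptional coactivator above background on 0 of 12 arrays, was higher in AF in both genotypes (0.76 in TonEBP +/- mice, 1.09 in WT mice). Median differences were -0.15 in TonEBP +/- mice and 0.05 in WT mice, and none of the 16 passed between genotypes. Among the 6 Iroquois genes, the nearest homeobox relatives of Mkx, Irx3 (-4.66 and -4.16), Irx5 (-2.41 and -2.49) and Irx1 (-1.68 and -1.15) were lower in AF in both genotypes and none was higher. Of these, Irx1 was above background on 0 of 12 arrays and Irx5 on no AF array.

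Hedgehog and BMP components induce and restrain Pax1 and Nkx3-2 in the embryo. Of 14 measured, 5 were higher and 4 lower in AF in TonEBP +/- mice, and 6 higher and 4 lower in WT mice, shares near those over all clusters. The hedgehog target Hhip, above background on 0 of 6 NP arrays, was at least 4.04-fold higher in AF relative to array medians in TonEBP +/- mice (limma adjusted p = 0.000103) and at least 6.89-fold in WT mice (adjusted p = 1.09e-05). The coreceptor genes Cdon (-6.11 and -3.93), Gas1 (-4.29 and -2.94) and Boc (-2.95 and -1.62) were lower in AF. So was the hedgehog effector gene Gli3 (-1.95 and -1.69), which was above background on 6 of 12 arrays. Between genotypes in AF, Cdon (-2.04, limma adjusted p = 0.00788) and Boc (-1.11, adjusted p = 0.0381) fell, as 3.31% of all clusters did, and no other member passed.

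Of 20 tendon and annulus matrix genes, 12 were higher and 4 lower in AF in TonEBP +/- mice, and 12 higher and 5 lower in WT mice. Both Lum (lumican) and Lox, the collagen crosslinking enzyme, were above background on 0 of 6 NP arrays. Relative to medians, Lum was at least 29.7-fold higher in AF in TonEBP +/- mice and at least 9.08-fold in WT mice, and Lox at least 9.04-fold and 3.68-fold. Eln (-0.03 and 0.40) and Kera (-0.01 and 0.47) passed in neither genotype. Fmod (fibromodulin, a collagen-binding proteoglycan of tendon) was on the other side with -6.48 and -4.25, together with Col6a1 at -5.69 and -4.65. Between genotypes in AF, where 2.76% of all clusters rose and 3.31% fell, 6 of the 20 rose, among them Col1a1 (4.18, limma adjusted p = 0.00772) and Tnc (tenascin C, 3.78, adjusted p = 0.00451), and Fmod (-2.11, adjusted p = 0.00451) and Col6a2 (-1.09, adjusted p = 0.0273) fell. Of 16 cartilage genes downstream of the sclerotome, 8 were higher and 8 lower in AF in TonEBP +/- mice, and 7 higher and 6 lower in WT mice. Acan (aggrecan) differed by -5.58 and -3.50, Sox6 by -4.54 and -3.67 and Snorc, a cartilage proteoglycan, by -4.60 and -3.81. Between genotypes in AF, Acan (-2.03, limma adjusted p = 0.000331) and Sox9 (-1.55, adjusted p = 0.0342) fell and none rose. None of the members of these 6 lists passed between genotypes in NP.

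**Figure D4:**
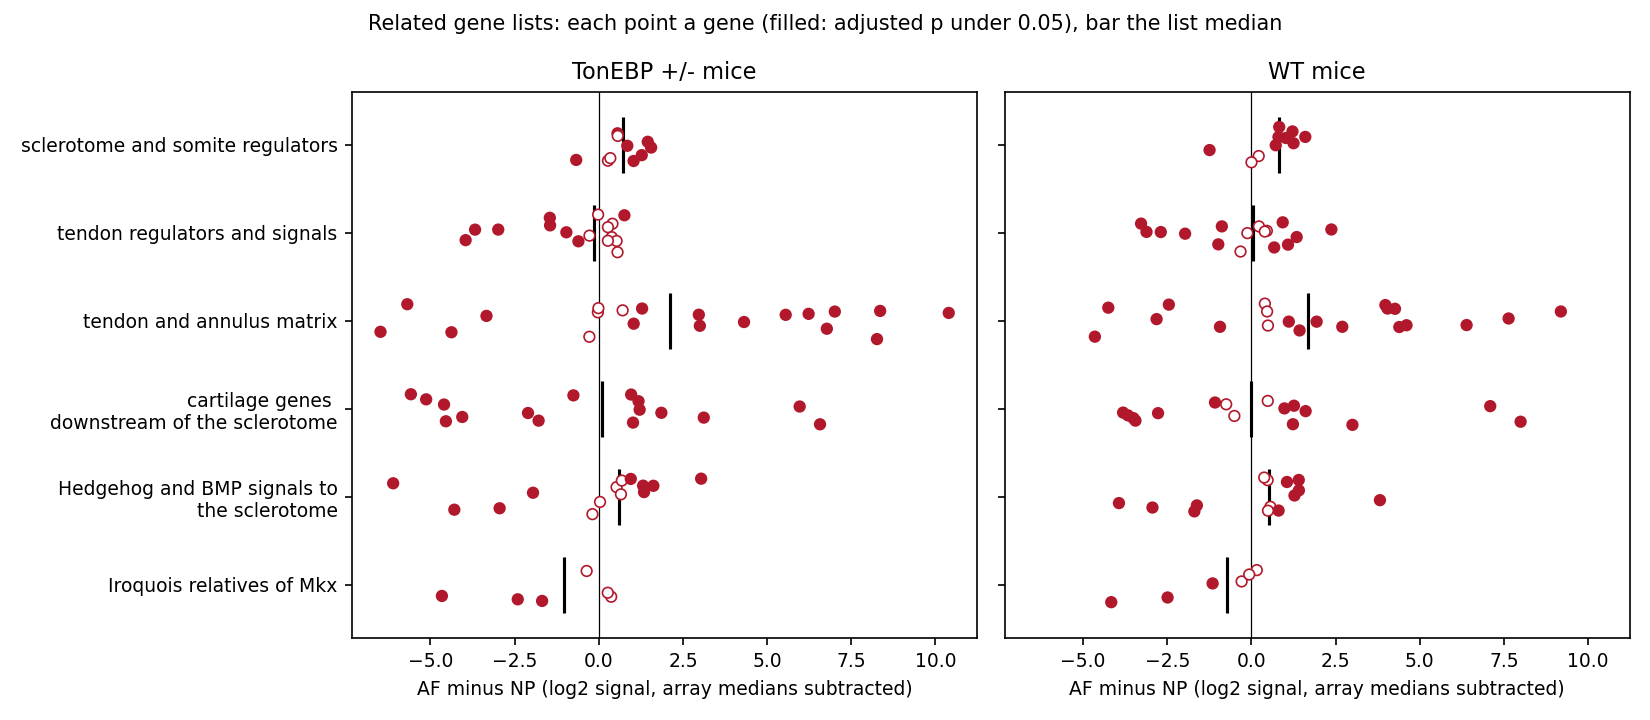
AF minus NP difference in log2 signal after subtracting array medians (horizontal axis) for the genes of 6 related lists (rows), in TonEBP +/- mice (left) and WT mice (right). Points are genes, filled where limma's adjusted p is under 0.05, and bars are list medians. The sclerotome list has a median of 0.70 in TonEBP +/- mice and 0.82 in WT mice with a narrow spread, while the tendon signal and Iroquois lists reach -3.95 and -4.66 in TonEBP +/- mice.

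Markers of other cell types moved with the tissue comparison. The 12 neutrophil and myeloid precursor genes were all higher in AF in both genotypes, with a summed log2 signal of 22.2 to 22.4 in AF of TonEBP +/- mice, about 22 in AF of WT mice, 14.8 to 17.3 in NP of TonEBP +/- mice and 17.6 to 19.3 in NP of WT mice. The 7 bone genes measured were all higher too, with sums of 15.8 to 16.7 in AF of TonEBP +/- mice, 12.8 to 14.1 in AF of WT mice and at most 8.32 in NP. Endothelial genes were higher in AF for 10 of 12 in TonEBP +/- mice and 9 of 12 in WT mice, and lower for 1 (Flt1) in both, with Pecam1 at 8.10 to 9.23 in AF and 4.71 to 5.63 in NP. Foxc2 is also active in lymphatic vessels and Foxf1 in endothelium, and the lymphatic markers Prox1, Lyve1 and Flt4 were, like both regulators, above background on 0 of 12 arrays. Flt4 was nonetheless higher in AF by 1.14 relative to medians in TonEBP +/- mice (limma adjusted p = 0.00929) and by 0.94 in WT mice (adjusted p = 0.0235). Lyve1 differed by 0.95 in TonEBP +/- mice (adjusted p = 0.00423) and by 0.44 in WT mice, which did not pass (adjusted p = 0.126), and Prox1 passed in neither (-0.28 and -0.10). Of 14 skeletal muscle genes, which a dissection of tendon attachments could bring along, 5 were higher in AF in TonEBP +/- mice and 7 in WT mice, where 25.3% and 31.3% of all clusters were. Only 6 of these 14 genes were above background on any array. Acta1 differed by 1.60 relative to medians in TonEBP +/- mice and by 1.75 in WT mice, but was above background on only 1 of 12 arrays. Between genotypes in AF, where 2.76% of all clusters rose, 5 of 7 bone genes, 3 of 8 osteoclast genes, 4 of 12 neutrophil genes and 2 of 7 macrophage genes rose. In NP, where 0.113% of clusters were called in either direction, 3 of 12 neutrophil genes (list median -2.26) and 2 of 7 erythroid genes fell, among them Mpo (-3.33, limma adjusted p = 0.0079). The part of these cells in the differences of the 8 regulators was not tested.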

How the data were processed

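Per the labels, RNA of 12 samples was run on the Clariom S Mouse array. The authors deposited log2 signals that RMA gives for each probe set, a method that corrects background, equalizes array distributions and summarizes probes. Per the submitters' processing notes the software was Affymetrix Expression Console; its version and the set of arrays normalized together are not given in the sources used here. Of 28846 probe sets, 6640 controls were left out and 22206 transcript clusters were tested, of which 19572 have a gene symbol from the array's gene table. The 8 genes, the lists and the tests were chosen with earlier results of these data known.

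Group means of the 4 groups were estimated together from all 12 arrays with limma 3.58.1 in R 4.3.3 (lmFit and eBayes without trend, 8 residual and 7.93 prior degrees of freedom). Genotypes were compared on values as deposited and tissues after subtracting each array's median. Adjusted p-values are Benjamini and Hochberg's over the 22206 clusters, called under 0.05. The fit was tested on simulated data. Alternatives swapped the median subtraction, applied quantile normalization, kept clusters above background on at least 3 arrays (12290 clusters), used only the arrays compared, an intensity trend or array weights, or left out each array. Subtracting the mean of the background probe sets was chosen after seeing the data. Named genes were the 8 genes, Nfat5, at most 4 called members of each list with the smallest adjusted p, and the 3 closest profiles to any of the 8 above background on at least 3 arrays. Col6a2, Egr1, Six2, Eya2, Eln, Kera, the values by array of Cnmd, Comp, Hhip, Ptch1 and Gli1, and the cell type markers given by name were chosen after their values were seen. Of 185 listed genes, 17 have no cluster. No batch, sex or animal number is given. Python 3.11.15 and matplotlib 3.10.9 drew the figures.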

Additional observations from a re-analysis of the deposited data

How the results depend on the processing

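The calls of Pax1, Nkx3-2, Foxc2 and Scx between AF and NP kept their direction and stayed under an adjusted p of 0.05 in both genotypes under every alternative run on them, as did that of Tnmd in TonEBP +/- mice. Over those alternatives Pax1 ran between 3.13 and 3.89 in TonEBP +/- mice and between 3.30 and 4.31 in WT mice, and Scx between -1.63 and -0.67 and between -1.79 and -0.67. With clusters above background on at least 3 arrays only Pax1 was fitted, so the number of called genes was 1 in either genotype. For genotype in AF, 1 gene (Pax1) was called with array weights and the number ran between 0 and 1 as single arrays were left out. With the background median as the level, 5 genes exceeded it. Signs turned for Mkx between tissues with values as deposited (0.071 in TonEBP +/- mice, 0.46 in WT mice) and for Nkx3-2 in AF after quantile normalization (0.033). The difference between genotype effects turned with array weights for Pax9 (0.094), Foxf1 (0.063), Scx (-0.10) and Tnmd (-0.16), and for Scx with the background mean subtracted (-0.073); the cause was not tested. As single arrays were left out, the genotype difference of Nkx3-2 ran between -0.22 and 0.027 in AF and between -0.033 and 0.050 in NP. The difference between genotype effects then ran between -0.25 and 0.091 for Pax9, -0.21 and 0.37 for Scx, -0.59 and 0.12 for Foxf1, -0.13 and 0.26 for Tnmd and -0.24 and 0.0055 for Nkx3-2. None of these turned values passed the test. In all, 664 values kept sign and side of the threshold, 27 turned, 16 lost a call and 10 gained one.

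No paired analysis was possible because the labels carry no replicate numbers and do not tie samples to animals. Over all clusters, genotype calls in AF numbered 1347, against 7187 with array weights, 3 with the AF arrays alone and 81 to 4029 as single arrays were left out. In NP they numbered 25, against 81 with array weights, 0 with the NP arrays alone, 13 with medians subtracted and 2 to 79 as single arrays were left out. For the difference between genotype effects they numbered 197, against 2503 with array weights and 22 to 1319 as single arrays were left out. The genotype calls of matrix and cartilage genes in AF rest on this unstable count. Signals near background limit what the other 7 genes can show: a low signal does not show that a gene is silent.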

Other observations

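Foxf1 and Foxc2 are neighbours on 1 chromosome, with Mthfsd between them and Foxl1 beyond Foxc2, per the RefSeq gene order. These neighbours were looked at after the values were seen. Foxl1, another forkhead gene, was above background on 0 of 12 arrays and differed between AF and NP by 0.00 relative to array medians in TonEBP +/- mice and by 0.27 in WT mice (limma adjusted p = 0.375). Mthfsd, which lies between the 2 genes, was lower in AF, by a log2 difference of -1.10 in TonEBP +/- mice (limma adjusted p = 0.00167) and -1.33 in WT mice (adjusted p = 0.000319).

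Cnmd (chondromodulin), the closest relative of Tnmd, had 14.84, 12.56 and 12.90 in AF of TonEBP +/- mice and 11.57, 15.55 and 16.62 in AF of WT mice. In NP it had 6.45, 6.32 and 5.74 in TonEBP +/- mice and 7.37, 6.54 and 6.34 in WT mice. Of the NP arrays, 0 of 3 in TonEBP +/- mice and 1 of 3 in WT mice were above background. Relative to medians Cnmd was at least 47.2-fold higher in AF in TonEBP +/- mice (limma adjusted p = 1.24e-05), and in WT mice it was higher by a log2 difference of 7.09 (adjusted p = 6.18e-06), with 1 NP array measuring it. Prg4 (lubricin) was likewise higher in AF, by 5.97 and 7.99, and its values in AF were 16.24, 17.19 and 16.04 in TonEBP +/- mice and 16.77, 19.77 and 19.88 in WT mice.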
